A study of Mus musculus with 4 samples.

Results

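Heat shock proteins and DnaJ chaperones were taken from the mouse gene list by symbol: names of the families Hspa, Hspb, Hspd, Hspe and Hsph, names that begin with Hsp90, and names of the form Dnaja, Dnajb or Dnajc with a number. The rule gave 72 of 25804 gene symbols and itself used no measured value. The members and the lists below were nevertheless chosen with earlier results of these data known. It also took in Hspbap1, a protein named for binding a small heat shock protein, and Hspbp1, a nucleotide exchange factor of HSP70, which are not chaperones of these families themselves. Of the 72 genes, 62 reached 10 CPM (UMI counts per 1000000) in at least 1 library, 42 reached 50, and none was at 0 in all 4 libraries. The 55 genes that reached 50 or passed the size rule given below are named with their values. The other 17 had their highest library value between 0.02233 and 34.83 CPM, and 7 of the 72 are known mainly from germ cells.

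Single-cell RNA was measured in 4 libraries, 1 for each kind of muscle cell, all from Pax7-nGFP mice, in which the promoter of the satellite cell gene Pax7 drives a nuclear green fluorescent protein. The fiSC library held GFP+ cells sorted from limb muscle of 3 pooled male mice aged 13 weeks. The ASC library held GFP+ cells sorted from 17 pooled tibialis anterior muscles of male and female mice aged 18 to 24 weeks, 3 days after injection of 10 µM cardiotoxin, a snake venom toxin that destroys muscle fibres. The myoblast library came from a culture of a male mouse aged 16 weeks at passage 2. The MPC library also came from a male mouse aged 16 weeks, whose cells passed 2 passages as myoblasts and then 5 passages in a medium with 5 µM Forskolin, 5 µM Repsox and 3 µM CHIR9901. Neither culture was sorted before loading. Muscle was digested with collagenase for the sorted libraries, and the cultures were lifted with trypsin. With 1 library a group, the kind of cell, the animals, the way of release, the sort and the library cannot be told apart, so no test was made and all intervals are 95% limits for counting error alone.

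Chaperones of the HSP70 family bind unfolded stretches of protein, and DnaJ proteins deliver these clients and speed up ATP hydrolysis by HSP70. HSP90 acts on later folding steps, HSP60 with HSP10 forms the folding chamber of mitochondria, and small heat shock proteins hold unfolded proteins without ATP. Some of these genes are switched on by heat shock factor 1 when proteins are damaged, others are made steadily, and those of the endoplasmic reticulum answer to the unfolded protein response. Several small heat shock proteins are made mostly in muscle, where they bind the contractile apparatus.

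After filtering, fiSC held 2185 cells, ASC 6448, myoblast 2351 and MPC 9059, with a median of 8760 to 22843 UMIs per cell and 19975483 to 179109303 UMIs in all. Levels are UMIs summed over the cells of a library, scaled to 1000000 UMIs (CPM). Each molecule counts once at its 3' end, so levels were not divided by gene length. Fewer cells that express a gene and less RNA of it per cell cannot be told apart in such sums. Cells fell into clusters that were made without the 72 genes. In fiSC 97.3% of cells lay in clusters called myogenic progenitor-like from their markers. In ASC this share was 32.1%, beside 46.5% macrophage-like and 20.5% unnamed cells, and 587 of the unnamed cells lay in a cluster led by Myog, a gene of differentiating myocytes. The progenitor-like cells of ASC were deep, with 95093393 of its 179109303 UMIs, so they weigh more in the sums than in the cell count. The 15 macrophage markers summed to 10690 CPM in ASC and to between 11.8 and 35.2 CPM in the other libraries. In myoblast and MPC 73.5% and 30.7% of cells were progenitor-like, 14.6% and 13.3% were muscle differentiation-like, and 10.5% and 51.5% stayed unnamed. In MPC the unnamed clusters 1 and 7 (2166 and 1002 cells) had progenitor marker sums of 2777 and 2866 CPM. Progenitor-like clusters 2 and 4 had 2304 and 2782 CPM, and unnamed clusters 3 and 8 had 1940 and 1292 CPM. The progenitor-like class of MPC may thus leave out similar cells. The myoblast and MPC libraries shared 164 barcodes and other pairs shared 4 to 27. Each comparison of summed levels was therefore made in all retained cells and again in progenitor-like cells.

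All 72 genes together summed to 49307 CPM in fiSC, and ASC, myoblast and MPC had 15864, 13328 and 11324 CPM. The 12 members on the list of inducible chaperones made up 30261 CPM of this in fiSC, and 4888, 3730 and 2667 CPM in the others. The 16 constitutive members summed to 10257, 8472, 7129 and 6475 CPM in the same order. Some genes stand on more than 1 list, as Hspd1, Hspe1 and Hspb8 do. Most of the difference between fiSC and the other libraries thus lay in the inducible list. Progenitor-like cells alone gave inducible sums of 30996, 6258, 3814 and 2464 CPM and constitutive sums of 10436, 10173, 7310 and 6527 CPM. Immediate early genes, which tissue dissociation is known to raise, were also highest in fiSC: the 18 on the list summed to 16427 CPM there and to 2216, 731 and 1234 CPM in ASC, myoblast and MPC, and their part in the result was not tested.

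**Figure D1:**
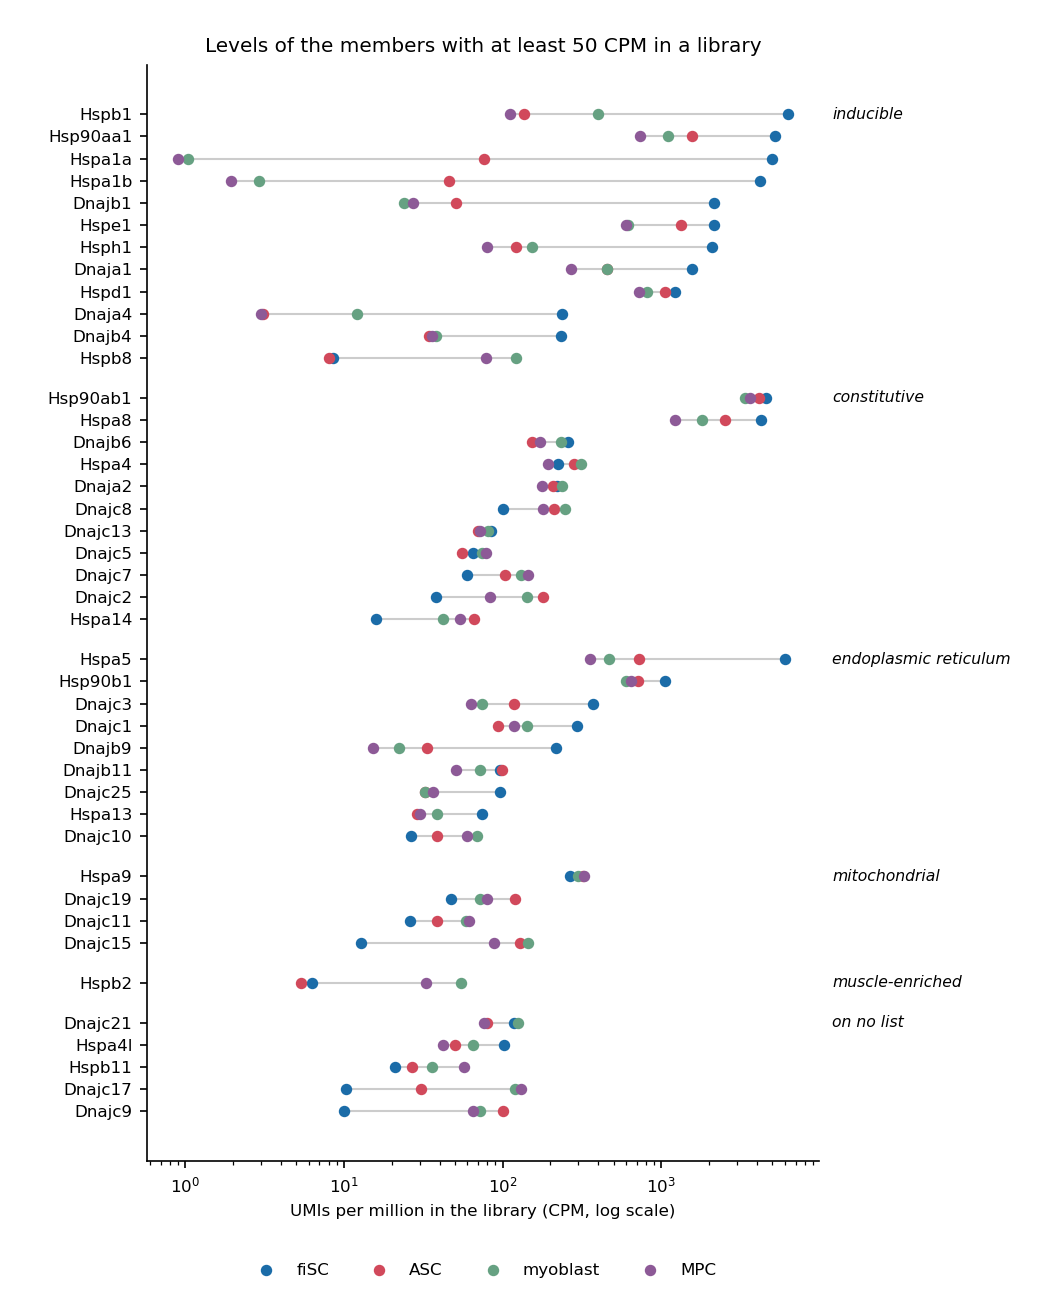
Level of the 42 members that reached 50 CPM in at least 1 library. Each row is 1 gene under its list, each dot 1 library, and the horizontal axis is summed CPM on a log scale. Inducible members spread widely, with fiSC at the right (Hspa1a 4941 CPM against 0.894 in MPC), while constitutive members range from the even Hsp90ab1 (3372 to 4586 CPM) to Dnajc2 (37.9 to 180 CPM).

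The inducible HSP70 genes differed most between fiSC and the cultures. Hspa1a stood at 4941 (fiSC), 76.4 (ASC), 1.04 (myoblast) and 0.894 CPM (MPC). Hspa1b, its neighbour and near copy, stood at 4203, 45.65, 2.91 and 1.94 CPM. Both were thus abundant in fiSC, much lower in ASC and nearly absent from the cultures. The transcripts of this pair share 56.3% (Hspa1a) and 59.6% (Hspa1b) of their 60-base stretches but none in their last 400 bases, where 3' reads fall, and how shared reads were counted is not given in the sources used here. Their sum was 9144, 122.1, 3.957 and 2.838 CPM.

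In all retained cells the other inducible members were also highest in fiSC, apart from Hspb8. Hspb1, the small heat shock protein HSP27, stood at 6316 (fiSC), 136 (ASC), 401 (myoblast) and 111 CPM (MPC). Dnajb1, the main DnaJ partner of inducible HSP70, stood at 2152, 50.9, 23.8 and 27.4 CPM. Hsph1, a nucleotide exchange factor of the HSP110 family, stood at 2088, 122, 153 and 79.4 CPM. In each of these, fiSC lay far above the other libraries, which lay within a few fold of each other. Dnaja4, a DnaJ protein of the cytosol, stood at 234.7, 3.099, 12 and 3.016 CPM. Dnajb4, another cytosolic DnaJ protein, stood at 232, 34.4, 37.9 and 35.7 CPM. Dnaja1, an HSP70 partner in protein import, stood at 1558, 452.5, 457 and 269 CPM. Hsp90aa1, the inducible HSP90, stood at 5166, 1569, 1096 and 735 CPM, so it was abundant in every library and highest in fiSC. The chaperonin pair was nearer to even: Hspe1 (HSP10) stood at 2146, 1335, 618 and 600.4 CPM and Hspd1 (HSP60) at 1216, 1055, 806 and 726 CPM. In progenitor-like cells Hspd1 was highest in ASC, at 1384 CPM against 1239 in fiSC. Hspb8, which works with the cochaperone Bag3, went the other way, with 8.51, 8.01, 121 and 78.1 CPM.

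Heat shock factors bind inverted repeats of the 5-base unit nGAAn, called heat shock elements. The stretches below were taken from RefSeq promoter windows of 250 bases before to 50 after the start site (build GRCm38.p6). They belong to the inducible members highest in fiSC among those whose window held a match, so a match was required. Dnajb1 (2152 CPM in fiSC), above Hspe1 (2146 CPM), was left out for want of one. Hsp90aa1 (5166 CPM in fiSC), above Hspa1a (4941 CPM), is also absent, for want of a window with a match. Each is printed 5' to 3' on the strand of its gene, and capitals mark the matches, 10 bases long, in which the units NGAAN and NTTCN stand side by side in either order, a pattern that reads the same on both strands. Hspb1 is at chr5:135887781-135887850 on the plus strand with 2 matches, from 118 to 98 bases before the start.
Hspb1: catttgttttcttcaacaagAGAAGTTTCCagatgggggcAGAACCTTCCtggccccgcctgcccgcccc
Hspa1a: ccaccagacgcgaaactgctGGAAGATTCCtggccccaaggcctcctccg
Hspa1b: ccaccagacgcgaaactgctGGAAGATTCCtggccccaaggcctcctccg
Hspe1: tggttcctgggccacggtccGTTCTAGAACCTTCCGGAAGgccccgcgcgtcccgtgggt
Hspa1a lies at chr17:34972232-34972281 and Hspa1b at chr17:34959314-34959363, both on the minus strand, and the stretches are identical, each with 1 match that starts 105 bases before the start site. Hspe1 lies at chr1:55088038-55088097 on the plus strand with 3 overlapping matches, and its window overlaps that of Hspd1 on the other strand, so the pair shares them. Of the 72 members 59 matched windows, 76 in all. The 2-unit motif was present in 14.96% of all 32851 windows and in 17 of 76 member windows (22.37%). Among inducible members it was in 11 of 18 windows (61.11%), and 10 of the 11 genes with a window held it; Dnajb1 did not. Of 11 constitutive genes with a window 1 held it (Dnajb6), of 12 reticulum genes 1 (Dnajc10). The muscle-enriched small heat shock list, low in fiSC, held it in 3 of 5 windows, those of Hspb3, Hspb6 and Hspb8, a share like that of the inducible list. A match describes letters in a window and does not show binding.

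Several constitutive members were more even across libraries. Hsp90ab1, the steady HSP90, stood at 4586 (fiSC), 4113 (ASC), 3372 (myoblast) and 3615 CPM (MPC), and in progenitor-like cells it was highest in ASC, at 5196 CPM against 4662 in fiSC. Hspa8, the steady HSC70, stood at 4235, 2510, 1800 and 1214 CPM, the widest range among the abundant ones. Hspa4, of the HSP110 family, stood at 224, 281, 313 and 193 CPM. Hspa9, the HSP70 of mitochondria, stood at 265, 320.5, 297.5 and 326 CPM. Thus Hspa4 and Hspa9 were not highest in fiSC. Dnaja2, a partner of HSC70, stood at 221, 208, 237 and 177 CPM. Dnajb6, which keeps aggregating proteins soluble, stood at 257, 153, 234 and 172 CPM. Dnajc5, a DnaJ protein of secretory vesicles, stood at 64.9, 55.4, 74.5 and 78.3 CPM, and Dnajc13, of endosomes, at 83.8, 70.0, 80.3 and 71.6 CPM. These 4 genes stayed within a 2-fold range over the libraries.

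Other constitutive members were lowest in fiSC. Dnajc2, which sits on ribosomes, stood at 37.9 (fiSC), 180 (ASC), 142 (myoblast) and 83.4 CPM (MPC). Hspa14, its HSP70 partner on the ribosome, stood at 16.0, 66.2, 42.1 and 54.05 CPM. Dnajc8, linked to splicing, stood at 101, 210, 248 and 180 CPM. Dnajc7, which binds both HSP70 and HSP90, stood at 59.4, 104, 130 and 145 CPM. Dnajc19, of the mitochondrial import motor, stood at 47.3, 120, 71.6 and 79.6 CPM. In all 5 the fiSC library was below each of the others.

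Members of the endoplasmic reticulum split by gene. Hspa5 (BiP), the HSP70 of this compartment, stood at 6028 (fiSC), 717 (ASC), 465 (myoblast) and 355 CPM (MPC). Dnajb9, a BiP partner induced by the unfolded protein response, stood at 215, 33.4, 22.3 and 15.3 CPM. Dnajc3, another BiP partner, stood at 371, 117, 73.5 and 63.5 CPM. Both partners were highest in fiSC, as BiP was. Hsp90b1, the HSP90 of the reticulum, stood at 1055, 709, 597 and 641 CPM, a smaller range. Dnajc1, a membrane-bound BiP partner, stood at 292, 92.8, 142 and 118 CPM. Dnajc25 stood at 96.3, 32.5, 32.4 and 36.5 CPM, and Hspa13, a short HSP70 relative, at 73.5, 28.7, 38.5 and 30.3 CPM. Dnajb11, which helps BiP with secreted proteins, was within a 2-fold range at 96.6, 99.6, 71.7 and 51.0 CPM. Others lay lowest in fiSC: Dnajc10, a disulfide reductase, stood at 26.4, 38.4, 68.5 and 59.6 CPM. Dnajc18 stood at 11.3, 13.2, 34.2 and 39.2 CPM, Dnajc14 at 6.86, 14.7, 16.6 and 19.4 CPM, and Dnajc16 at 2.75, 4.93, 9.86 and 11.2 CPM.

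The remaining named members had scattered roles. Dnajc15, a relative of Dnajc19 in mitochondria, stood at 12.8 (fiSC), 129 (ASC), 144 (myoblast) and 88.0 CPM (MPC). Dnajc11, also on the mitochondrial list, stood at 26.2, 38.6, 58.6 and 61.1 CPM. Dnajc9, a histone chaperone, stood at 10.0, 100.5, 72.3 and 65.0 CPM. Dnajc17, linked to splicing, stood at 10.4, 30.5, 120 and 131 CPM. These 4 were lowest in fiSC. Dnajc24, needed to modify elongation factor 2, stood at 11.6, 28.4, 27.2 and 36.0 CPM, and Hspb11, a subunit of the transport complex of cilia despite its name, at 21.0, 26.7, 36.1 and 56.6 CPM. Dnajc21, a ribosome assembly factor, stood at 117, 80.1, 124.5 and 76.0 CPM. Hspa4l, an HSP110 relative, stood at 101, 49.7, 65.3 and 42.2 CPM. Low in all were Dnajb2 (47.3, 12.2, 22.9 and 17.0 CPM), Hspa2, known from the testis (25.1, 5.98, 8.63 and 12.9 CPM), and Dnajb5 (17.2, 2.41, 5.86 and 4.82 CPM). Likewise Dnajc27 had 21.8, 7.07, 19.8 and 18.3 CPM, Hspbap1 had 19.4, 12.3, 14.6 and 6.28 CPM, and Dnajc12 had 1.65, 6.40, 10.8 and 7.93 CPM.

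A gene was called higher or lower between a pair of libraries where CPM + 5 differed 2-fold or more and the level reached 10 CPM in one of the pair. This size rule takes the place of a test. In ASC against fiSC, 8 members were higher and 19 lower of 55 that reached 10 CPM, beside 24.6% higher and 21% lower among all 9325 genes. Lower members were thus more frequent than genes at large and higher members less so. Of the inducible list 9 of 11 were lower and none higher, with a median log2 ratio of -4.05, beside 0.08 over all genes. Hspa1b was 92.1-fold lower (90 to 94.2), Dnaja4 75.8-fold (69.4 to 82.9), Hspa1a 64.7-fold (63.5 to 65.8), Hspb1 46.4-fold (45.8 to 47.1) and Dnajb1 42.3-fold (41.3 to 43.3). At the other end of the list Hsp90aa1 was 3.29-fold lower (3.27 to 3.32), and Hspe1 and Hspd1 did not pass.

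On the constitutive list 4 of 16 were higher in ASC, about the share over all genes, and none lower. The median was 0.30, and -0.05 where each cell counted equally (the mean over cells of CPM). They were Dnajc2 at 4.735-fold (4.41 to 5.10), Hspa14 at 4.14-fold (3.71 to 4.64), Dnajc19 at 2.54-fold and Dnajc8 at 2.09-fold. Of 13 reticulum members 6 were lower and none higher, led by Hspa5 at 8.40-fold (8.34 to 8.47) and Dnajb9 at 6.44-fold. Of 9 mitochondrial members 2 were higher (Dnajc15 and Dnajc19) and none lower, with a median of 0.27. Dnajc15 and Dnajc9 were 10.1-fold (8.93 to 11.5) and 10.0-fold (8.73 to 11.6) higher. Progenitor-like cells gave 8 higher and 18 lower of 55, beside 24.2% and 23.9% of all genes, with medians of -3.88 for the inducible and 0.41 for the constitutive list.

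**Figure D2:**
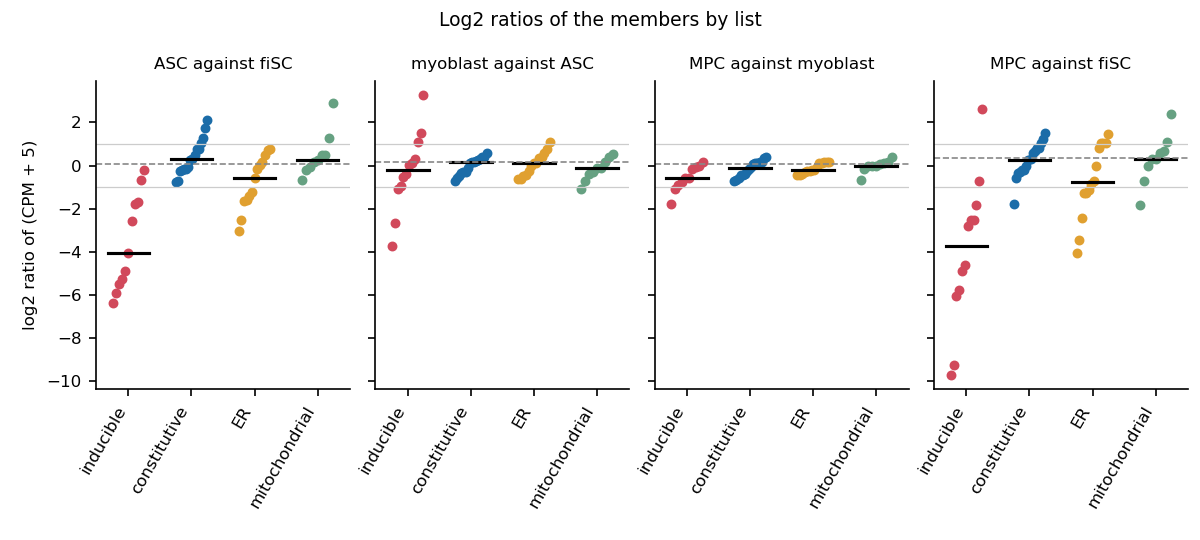
Log2 ratio of CPM + 5 of each member in the 4 comparisons, 1 panel per comparison, by list (inducible, constitutive, endoplasmic reticulum, mitochondrial). Black bars are list medians, the dashed line is the median of all genes and grey lines mark 2-fold. The inducible median lies at -4.05 in ASC against fiSC and -3.72 in MPC against fiSC, and the constitutive medians lie at 0.30 and 0.27.

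Between ASC and myoblast fewer members passed than between ASC and fiSC. Of 59 members 10 were higher in myoblast and 3 lower, beside 14.3% and 9.41% of all genes. TMM scaling, an alternative that sets aside the most unequal genes, gave 6 higher and 4 lower. Hspa1a was 73.2-fold lower (56.4 to 96.7), Hspa1b 15.7-fold (13.4 to 18.5) and Hspe1 2.16-fold. Higher were 5 small heat shock genes of muscle (below), Dnajc17 at 3.94-fold, Dnaja4 at 3.87-fold, Hspb1 at 2.95-fold, Dnajc27 at 2.80-fold and Dnajc18 at 2.59-fold. The inducible median was -0.19 with 3 members higher and 3 lower of 12, and no constitutive member passed. Progenitor-like cells gave 2 higher (Dnajc17 and Hspb6) and 4 lower (Hspa1a, Hspa1b, Hspe1 and Dnajb1) of 54, beside 14.3% and 4.66%. All 4 lower ones are on the inducible list, of which 11 were measured there, with a median of -0.62 beside 0.21 over all genes. Hspb1, Dnaja4, Dnajc18, Dnajc27 and 4 of the 5 muscle genes thus did not pass in progenitor-like cells.

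From myoblast to MPC few members differed. No member of 59 was higher and 2 were lower, beside 6.83% and 6.42% of all genes. These were Dnaja4 at 3.98-fold (3.51 to 4.52) and Hspb1 at 3.62-fold (3.54 to 3.69). Progenitor-like cells gave none higher and 5 lower of 56 (Hspb1, Hsph1, Hspb2, Dnajc21 and Hspbap1), beside 7.19% and 7.64%. Genes of the G2/M phase, a sign of dividing cells, summed to 58.1 CPM in fiSC and to 2122, 2071 and 3174 CPM in ASC, myoblast and MPC, and their part in these values was not tested.

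MPC was set against the same fiSC library as ASC, so the comparisons share their reference. Of 58 members 15 were higher and 21 lower, beside 27.9% and 15.8% of all genes. Of the inducible list 10 of 12 were lower, with a median of -3.72 beside 0.35 over all genes. Hspa1a was 5529-fold lower (4623 to 6669) and Hspa1b 2162-fold (1915 to 2451), Dnajb1 78.6-fold (76.0 to 81.4) and Hspb1 57.0-fold (56.0 to 58.0). The exception was Hspb8, 9.17-fold higher. Of the constitutive list 3 were higher (Hspa14, Dnajc2 and Dnajc7) and 1 lower, Hspa8 at 3.49-fold (3.46 to 3.52). Reticulum members split into 6 lower, led by Hspa5 at 17.0-fold (16.8 to 17.2) and Dnajb9 at 14.05-fold, and 4 higher, Dnajc10, Dnajc14, Dnajc16 and Dnajc18, at 2.26- to 4.065-fold. Of 9 mitochondrial members 2 were higher (Dnajc15 and Dnajc11) and 1 lower (Hspe1), with a median of 0.30. Dnajc17 was 12.7-fold higher (11.0 to 14.6). Progenitor-like cells gave 13 higher and 21 lower of 58, beside 29.4% and 16.4%, and there Hspb2, Dnajc2 and Dnajc11 no longer passed as higher and Dnajc12 did, while Hspa13 no longer passed as lower and Dnajc21 did.

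Genes that work with these chaperones but are no members showed both directions. In all retained cells 11 of 32 measured partners were higher and 6 lower in ASC than in fiSC. All genes had 24.6% and 21%, so the lower count is near the share over all genes. Cryab, a small heat shock protein outside the symbol rule, stood at 926 CPM in fiSC and 44.9 in ASC, and Bag3, partner of Hspb8, at 903 and 42.1 CPM. Ubb, a ubiquitin gene, was lower too, at 2370 against 625.5 CPM, as were Hsf1 and Bag5. The higher partners were Bag1, Stub1, Cdc37, Fkbp4, Cacybp, Trap1 and 5 subunits of the chaperonin of the cytosol, Cct2, Cct5, Cct6a, Cct7 and Cct8, the last at 148 CPM in fiSC and 356 in ASC. Progenitor-like cells gave 14 of 32 higher, with Bag2, Tcp1 and Cct4 added, beside 24.2% of all genes. They gave 5 lower, beside 23.9%, and Bag5 no longer passed. Heat shock factor 1 (Hsf1) itself stood at 50.4 (fiSC), 19.5 (ASC), 28.8 (myoblast) and 26.0 CPM (MPC). In myoblast Cryab (409 CPM) and St13 (598 CPM against 238.5 in ASC) were higher than in ASC, and in MPC Cryab (152 CPM) was lower than in myoblast. MPC against fiSC gave 6 partners higher (Bag1, Bag2, St13, Stub1, Cdc37 and Trap1) and 4 lower, among them Bag3, Cryab and Ubb, and both counts lie below the 27.9% and 15.8% of all genes.

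Of 15 measured genes of the unfolded protein response of the reticulum 1 was higher (Sdf2l1) and 4 lower in ASC than in fiSC. All genes had 24.6% and 21%, and in all retained cells 4 of 15 is close to the latter. The lower ones were Xbp1 (279 against 41.1 CPM), Atf6 (390 against 86.75 CPM), Herpud1 (344 against 40.0 CPM) and Ddit3 (53.1 against 22.2 CPM). In MPC 8 were lower than in fiSC (Xbp1, Atf4, Atf6, Ddit3, Herpud1, Manf, Pdia3 and Edem1) and Pdia4 was higher, beside 15.8% and 27.9% of all genes. Progenitor-like cells of ASC had 6 of 15 lower than fiSC, with Sel1l and Edem1 added, beside 23.9% of all genes. Those of MPC had 6 lower, without Pdia3 and Edem1, beside 16.4%.

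The muscle-enriched small heat shock genes differed by class of cell. Hspb2 stood at 6.26 (fiSC), 5.39 (ASC), 54.8 (myoblast) and 33.1 CPM (MPC). Hspb3 stood at 0.250, 0.184, 17.2 and 8.20 CPM, Hspb7 at 0.250, 0.0335, 10.9 and 6.14 CPM, and Hspb6 at 1.50, 2.06, 10.0 and 3.96 CPM. Both cultures were above both sorted libraries in each of these. All 5 genes of the list, Hspb8 included, passed in myoblast against ASC, Hspb8 at 15.1-fold (14.2 to 16.0) and Hspb2 at 10.2-fold (9.45 to 10.9). Within the cultures the genes were concentrated in muscle differentiation-like cells. In myoblast, Hspb8 stood at 19.2 CPM in progenitor-like and 684 in muscle differentiation-like cells, Hspb2 at 18.1 and 260.1, Hspb3 at 1.45 and 106, and Hspb7 at 0.323 and 66.6. In MPC, Hspb8 stood at 29.05 and 343, Hspb2 at 5.10 and 177, Hspb3 at 0.878 and 49.3, and Hspb7 at 0.796 and 36.7. Hspb6 did not share this, at 10.4 and 8.45 CPM in myoblast and 3.76 and 4.74 CPM in MPC. Hspb1, which is not on the muscle list, stood at 363 and 601 CPM in myoblast and at 59.45 and 444 CPM in MPC, so it too was higher in the differentiation-like class. Hspb2 lies opposite Cryab on the other strand and the strand used in counting is not given in the sources used here, so reads of the pair may be mixed.

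**Figure D3:**
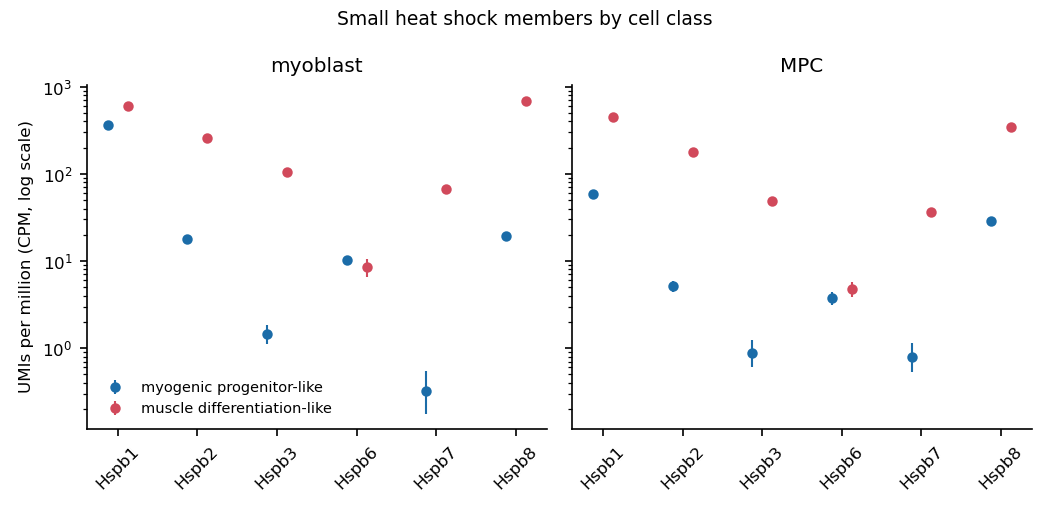
Level of 6 small heat shock genes (Hspb1, Hspb2, Hspb3, Hspb6, Hspb7 and Hspb8) in progenitor-like and muscle differentiation-like cells of the myoblast and MPC libraries, in CPM on a log scale, with 95% counting limits as error bars. Hspb8 is at 19.2 CPM in progenitor-like and 684 CPM in muscle differentiation-like cells of myoblast, while the Hspb6 values of the classes lie close together in both libraries.

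Within the ASC library, progenitor-like and macrophage-like cells differed: Hsp90ab1 stood at 5196 and 1152 CPM, Hspd1 at 1384 and 132.5 CPM, Hspe1 at 1750 and 299 CPM, and Hspb1 at 195 and 11.6 CPM. Hspa5 and Dnajb9 of the reticulum went the other way, at 535 and 1113 CPM and at 23.7 and 58.9 CPM. They are examples and do not stand for each member of that list. The inducible lists summed to 6258 and 1280 CPM in the classes and the reticulum lists to 1689 and 2487 CPM. Even the progenitor-like cells of ASC, whose Hspa1a was 96.5 CPM, stayed far below the progenitor-like cells of fiSC, whose Hspa1a was 5022 CPM.

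Cells of fiSC differed widely in their inducible chaperones. Cells were thinned to 2000 UMIs each for this, which left out 50 of 2185. A cell held a median of 21 UMIs of the inducible list, with a 5th percentile of 3 and a 95th of 202.3. In ASC the same figures were 5, 0 and 18, in myoblast 7, 3 and 13, and in MPC 5, 1 and 11. These are all retained cells, so ASC mixes macrophage-like cells (46.5%, inducible sum 1280 CPM) with progenitor-like ones (6258 CPM). Progenitor-like cells were thinned alone only in fiSC, with a median of 21, a 5th percentile of 3 and a 95th of 204. The upper part of the fiSC cells thus reached levels outside the bulk of the other libraries, and its lower part overlapped them. Constitutive members spread less, with a fiSC median of 16 and a 95th percentile of 47.3, against 11 and 27 in ASC.

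**Figure D4:**
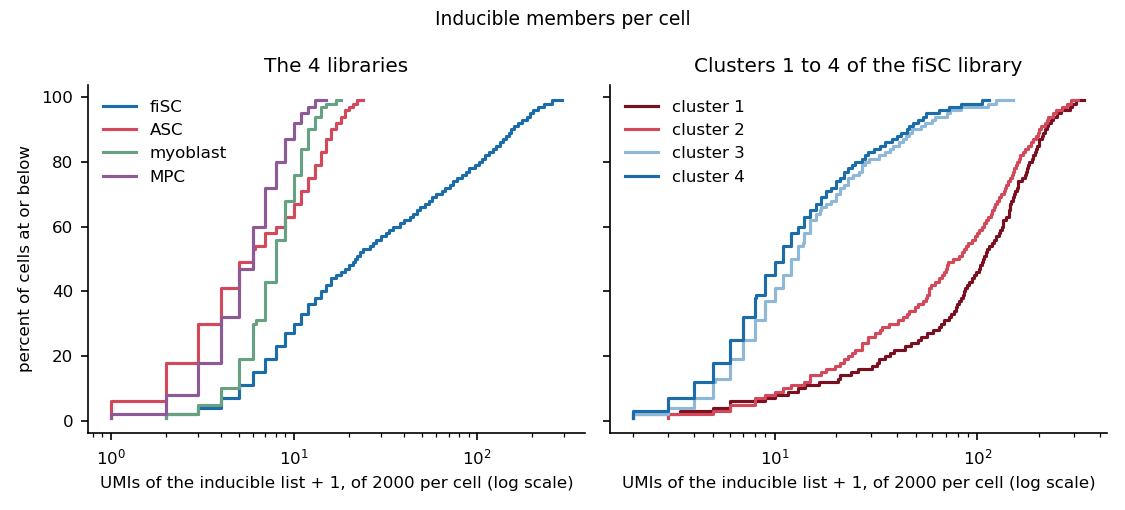
Cumulative percent of cells by inducible UMIs per cell (plus 1, log axis) after thinning to 2000 UMIs, for the 4 libraries and for fiSC clusters 1 to 4. The library curves hold cells of all classes, so that of ASC includes macrophage-like cells. The fiSC curve extends furthest to the right, with a 95th percentile of 202.3 UMIs against 18, 13 and 11 in ASC, myoblast and MPC, and clusters 1 and 2 lie to the right of clusters 3 and 4.

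The variance-to-mean ratio of the thinned UMIs puts a number on this, since a gene spread only by counting has a ratio near 1. Over 7612 genes of at least 10 CPM in fiSC the median ratio was 1.16. Hspa1a had a ratio of 32.2, the third highest of all, with a median of 1 UMI per cell, a 90th percentile of 33 and a maximum of 119. Hspb1 had 31.1 (median 3, 90th percentile 35, maximum 166 UMIs), Hspa1b 22.1 (1, 27 and 90), Hsp90aa1 14.8 (5, 25 and 87) and Dnajb1 14.5 (0, 13 and 73). For Hspa1a, Hspa1b and Dnajb1 the median cell thus held at most 1 UMI, while a minority held much. Hspb1 and Hsp90aa1 had higher medians, of 3 and 5 UMIs, so for them the typical cell was not near 0. Hspa5 of the reticulum had 12 (9, 29 and 94), and Hspa8 and Hsp90ab1 8.49 and 6.17. The ratio grows with the mean: 154 genes with at least 2 UMIs per cell had a median of 2.46, and the 13 members among them 11.1. Members made up 11 of the first 50 genes by this ratio, beside 51 of all 7612 genes ranked and 13 of the 154 more abundant ones. The medians by list cover members of at least 10 CPM in fiSC, which leaves Hspb8 out of the inducible ones. Medians were 11.1 for 11 inducible members (1.99 to 32.2), 1.13 for 16 constitutive members (1.00 to 8.49) and 1.24 for 12 of the reticulum (0.978 to 12). The lists differ in level, so these medians do not compare spread at equal means. In all retained cells of ASC, macrophage-like ones included, Hspa1a had a ratio of 5.23 and Hspb1 3.63. For Hspb1 the ratio was 1.48 in myoblast and 2.04 in MPC. These libraries held less of both genes than fiSC, as with Hspa1a at 76.4 CPM in ASC against 4941 in fiSC. Since the ratio grows with the mean, these values do not compare spread between libraries at equal means.

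**Figure D5:**
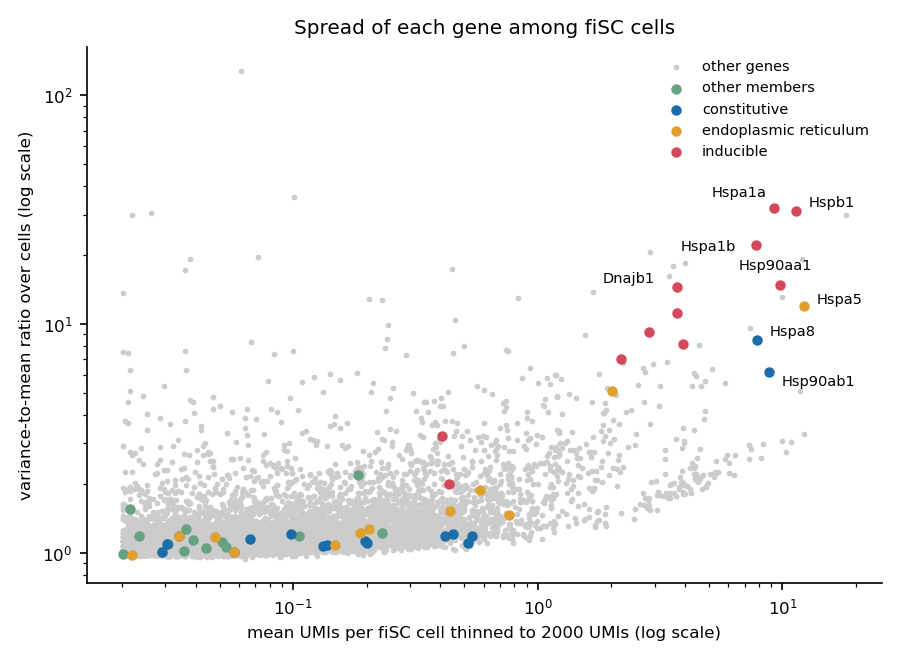
Variance-to-mean ratio against mean UMIs per cell for each gene of at least 10 CPM in fiSC, after thinning to 2000 UMIs (both axes log), with members coloured by list. Hspa1a, Hspb1 and Hspa1b reach 32.2, 31.1 and 22.1, beside a median of 2.46 for genes with at least 2 UMIs per cell.

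Inducible members varied together across the 2135 fiSC cells. The 55 pairs of inducible members had a median Spearman correlation of 0.472 (0.128 to 0.870) and none was negative. Within clusters 1 to 4, described next, the medians of these pairs were 0.417, 0.457, 0.282 and 0.256. None was negative in clusters 1 and 2, and 6 and 4 were in clusters 3 and 4. Hspa1a with Hspa1b gave 0.870, Dnajb1 with Hspa1b 0.683 and Hspd1 with Hspe1 0.567. Hspd1 and Hspe1 overlap on opposite strands and the strand counted is not given, so reads of that pair may be mixed. Pairs of an inducible and a constitutive member had a median of -0.0321, although Dnajb1 with Hspa8 gave 0.582. Pairs of an inducible and a reticulum member had a median of -0.0441, with 78 of 88 below 0. Within the same clusters 1 to 4, the counts below 0 were 34, 55, 45 and 36 of the 88, with medians of 0.0201, -0.0225, -0.00244 and 0.0128. The excess below 0 was thus not seen inside single clusters except for a small one in cluster 2. The highest pair within the reticulum list was Hspa5 with Hsp90b1 at 0.483. These are descriptions over cells of 1 library, and all values share the thinned depth. The summed inducible UMIs of a cell correlated at 0.605 with its immediate early genes, at 0.263 with its UMIs before thinning and at 0.0333 with its mitochondrial percentage.

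The 4 progenitor-like clusters of fiSC, numbered 1 to 4 with 381, 522, 464 and 759 cells, differed in these sums. The inducible list summed to 63438, 52217, 12086 and 10125 CPM, a 6.27-fold range, and the constitutive list to 12932, 14418, 8214 and 7641 CPM. Hspa1a ran from 16063 and 7073 CPM in clusters 1 and 2 to 501 and 405 CPM in clusters 3 and 4, and Hspb1 from 10914 and 11695 to 2995 and 2568 CPM. Reticulum members ran the other way for cluster 1, with a list sum of 3702 CPM there and 8666, 10282 and 10041 CPM in the others, and Hspa5 at 2334, 6457, 7772 and 7252 CPM. So the cluster with most Hspa1a had least Hspa5. Immediate early genes, which were not left out of the clustering, summed to 36122, 22305, 9724 and 6492 CPM beside these values. All clusters come from 1 library, so these values are a description.

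Clusters 3 and 4, in which inducible chaperones were lowest, were next used alone as the fiSC reference. Set against these clusters alone, ASC had an inducible median of -2.45 and MPC of -2.84, with constitutive medians of 0.24 and 0.05. In ASC the log2 ratio was -2.45 for Hspa1a, -4.28 for Hspb1 and -3.09 for Dnajb1, while Hspe1 and Hspd1 were at 0.45 and 0.86. In MPC the log2 ratio of Hspa1a was -6.24. This choice of clusters was made after their values were seen, so it selects the lowest fiSC cells by the measure compared.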

How the data were processed

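The authors deposited unnormalized UMI counts, by gene and barcode, for 4 libraries (10x Genomics 3' v3.1 chemistry, Illumina NovaSeq). Per the submitters' processing notes, STAR 2.7.10b and GRCm39 were used, and how UMIs were collapsed, cells called and strand counted is not given in the sources used here. Of the 72 members, 27 overlap an annotated gene on the opposite strand and 8 one on the same strand, so their reads may be mixed. Counts of a symbol on several features were summed. Cells with at least 1000 UMIs, 500 genes and at most 10% mitochondrial UMIs were kept, and doublets scored with Scrublet (scanpy 1.11.5) were removed, 66 from fiSC, 295 from ASC, 61 from myoblast and 836 from MPC. Clusters (Leiden, resolution 0.5, 2000 variable genes, 30 components) left out members, partners, myogenic and G2/M markers, mitochondrial genes and EGFP, and were named from fixed marker lists. CPM are summed UMIs with exact Poisson limits, and the size rule asks for a 2-fold difference of CPM + 5 and for 10 CPM or more on the higher side. Spread was measured after thinning each cell to 2000 UMIs. On simulated data with known changes, the size rule found 100% of 3-fold and 0% of 1.5-fold changes among 25804 genes in ASC against fiSC (50 genes each), and the spread ratio of unspread genes in fiSC was 0.998. Members at 50 CPM or more in a library, or past the size rule, are named, and partners where past it, except 1 that is counted but not reported here by name. The members and lists were chosen with earlier results of these data known. Python 3.11.15, numpy 2.4.6, scipy 1.17.1, pandas 2.3.3, leidenalg 0.10.2, matplotlib 3.10.9, R 4.3.3 and edgeR 4.0.16 (TMM factors only) were used. Alternatives covered cell filters, doublets, cell classes, scaling, pseudocount, minimum CPM, clustering and thinning.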

Additional observations from a re-analysis of the deposited data

How the results depend on the processing

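No paired analysis was possible because each group had 1 library. For ASC against fiSC, between 20 and 28 members passed under all alternatives run, beside 27. For myoblast against ASC (13 members) the count was 6 in progenitor-like cells, 6 with these named by marker sums alone, 6 at clustering resolution 0.2 and 6 at 1.0, 7 with a pseudocount of 20 and 6 at a minimum of 50 CPM. For MPC against myoblast (2 members) it was 5 in progenitor-like cells, 4 by marker sums alone, 5 at resolution 0.2, 5 at 1.0, 7 with the strict cell filter, 4 with a pseudocount of 1, 1 with 20 and 1 at 50 CPM. For MPC against fiSC (36 members) it was 23 with a pseudocount of 20. Hspb2 in MPC against fiSC (log2 1.76) turned to -0.0885 in progenitor-like cells, -0.0655 by marker sums alone, -0.11 at resolution 0.2 and -0.10 at 1.0, and it was the only named member to change sign while called. The median spread ratio of inducible members (11.1) was 27.3 at 5000 UMIs, 11.3 in progenitor-like cells, 11.6 with doublets kept and 11.5 at no more than 5% mitochondrial UMIs, and their median correlation (0.472) was 0.524 at 5000 UMIs and 0.471 in progenitor-like cells. The range of inducible sums over fiSC clusters (6.27-fold) was 4.72-fold at resolution 0.2 and 13.96-fold at 1.0. TMM scaling moved the median of all genes from 0.08 to 0.33 in ASC against fiSC, from 0.14 to -0.13 in myoblast against ASC and from 0.35 to 0.23 in MPC against fiSC, and the share of higher among called genes from 53.9% to 64.0% and from 60.4% to 44.1% in the first 2 of these. The cause of these differences was not tested. Of the calls listed for ASC against fiSC, 5 of 8 higher and 13 of 19 lower passed under every alternative run, and of those for MPC against fiSC, 6 of 15 and 15 of 21. In myoblast against ASC only Dnajc17 (higher) and Hspa1a (lower) did, and in MPC against myoblast only Hspb1. Counting error is small at these depths, so the single library per group limits the comparisons.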

Other observations

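A small cluster of 104 cells in MPC, called muscle differentiation-like and with a median of 2684 UMIs per cell, held Hsp90ab1 at 18213 CPM, where the other clusters of that library held 2466 to 4317 CPM. The same cluster held Dnajc21 at 2444 CPM and Dnajc2 at 1680 CPM, the latter at 59.26 to 152 CPM elsewhere in the library. It was singled out after its values were seen.

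In ASC, 46 endothelial-like cells held Hspb1 at 1157 CPM and Hspa1a at 382 CPM, above progenitor-like cells (195 and 96.5 CPM). Among the clusters of ASC, cluster 4 (675 cells) held Hspa1a at 267 CPM, Hspa1b at 173 CPM and Hspb1 at 389 CPM. These too were chosen after their values were seen.

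The fibroblast-like cells of fiSC, 59 in number, held Hspa1a at 3400 CPM and an inducible sum of 16238 CPM, between those of the progenitor-like clusters, and Hspa5 at 1983 CPM.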
